A study of Equus caballus with 10 samples.

Results

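The genes described here are 10 purinergic genes of equine tenocytes, taken by name from the 29196 genes of the deposited table. These 10 genes were chosen with earlier results of these data known. They are 2 ATP-gated channels (P2RX4 and P2RX7), 2 nucleotide receptors coupled to G proteins (P2RY2 and P2RY6), 3 adenosine receptors (ADORA1, ADORA2A and ADORA2B) and 3 enzymes of purine turnover (ENTPD1, NT5E and ADA). All 10 were found in the table. Primary tendon cells from adult horses, isolated from the superficial digital flexor tendon and passaged in culture, were kept in 3D collagen gels for 14 days. PF-06650833, which blocks IRAK-4, a kinase downstream of the IL-1 receptor, was added to all cultures at 100 nM every day. One group had no other treatment (the inhibitor group). The other was also given IL-1β, at 17 ng/ml every 3 to 4 days (the IL-1β group). Tenocytes of 5 donors, called donors 1 to 5, gave 1 RNA library to each group, so each group has 5 libraries. Since the inhibitor was present in both groups, the comparison measures the response to IL-1β that remains in its presence. The effect of the inhibitor itself was not analysed here.

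ATP and other nucleotides leave cells under stress or mechanical load and act on P2X channels, which let cations including calcium into the cell, and on P2Y receptors, which signal through G proteins. At the cell surface ENTPD1 converts ATP and ADP to AMP and NT5E converts AMP to adenosine. ADA converts adenosine to inosine. Adenosine acts on its own receptors, of which ADORA1 lowers cyclic AMP and ADORA2A and ADORA2B raise it. NT5E is also a widely used surface marker of mesenchymal stromal cells, while P2RX7 and ENTPD1 are best known from leukocytes.

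Expression is given on the log2 scale of the deposited values, which were recognised from the values themselves as variance-stabilized. On this scale a gene with 0 reads stands at 3.43, and differences between low values are compressed. Reads on genes, estimated from the spacing of low values, numbered 26509947 to 35749714 per library in the inhibitor group and 26735901 to 33464155 in the IL-1β group. Read numbers per gene below are such estimates. The tendon markers SCX, COL1A1, COMP and DCN were detected in all 10 libraries, while TNMD was at the value of 0 reads in all of them. Summed normalized counts of the 11 tendon markers were 971171 to 1564030 in the inhibitor group and 300468 to 1275840 in the IL-1β group, and 4 of the 10 tested markers fell. Of the 12 leukocyte markers, AIF1, CD3E and CD3D were at 0 reads in all libraries, PTPRC had at most 3 estimated reads, CSF1R at most 1 and CD14 up to 1468. The 12 summed to 239 to 1936 normalized counts in the inhibitor group and to 192 to 1952 in the IL-1β group, and 0 of the 5 tested rose or fell by limma (0 had an unadjusted p below 0.05). Endothelial markers summed to 232 to 707 and to 44.8 to 106 normalized counts in the same order of groups, perivascular and smooth muscle markers to 29719 to 201362 and to 39101 to 82893, and epithelial markers to 534 to 1571 and to 43.1 to 444. Of those tested, 1 of 5 endothelial, 3 of 7 perivascular and 1 of 2 epithelial markers fell, and 0 rose (limma). These shifts were measured beside the results below, and their part in them was not tested. In such bulk samples, fewer cells of a type and less RNA per cell cannot be told apart. The IL-1β response was present in each donor, as all 5 of IL6, CXCL8, PTGS2, NFKBIA and MMP3 were higher in 5 of 5 donors, with fitted log2 fold changes of 1.64 to 8.79.

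The 3 adenosine receptor genes rose in the IL-1β group, and the other 7 genes did not pass the thresholds. To be counted as changed, a gene needed an adjusted p below 0.05 (limma, Benjamini-Hochberg over 17992 tested genes) and had to differ by at least 1 on the log2 scale in either direction. All 10 genes passed the filter on low values, which asked for reads in at least 5 of the 10 libraries. In all, 3 of 10 purinergic genes were higher and 0 were lower (by limma, 2 of those lower in mean had an unadjusted p below 0.05, P2RX7 and NT5E). Over all tested genes 6.68% were counted as changed, 3.11% higher and 3.57% lower. As the 10 genes were chosen with earlier results of these data known, this comparison is not independent evidence. With the donor as a block the same 3 genes were counted, beside 8.26% of all genes. The median log2 fold change of the 10 genes was 0.03, and that of all tested genes -0.01. The groups did not overlap for ADORA2A and ADORA2B, 2 of the 10 genes, both higher, beside 12.7% of all tested genes (6.29% higher, 6.41% lower). Without the minimum fold change 4 of the 10 genes were below the adjusted p, 3 higher and 1 lower, beside 15.5% of all tested genes (7.57% higher, 7.89% lower), and with the donor as a block it was also 4, beside 22.2%.

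**Figure D1:**
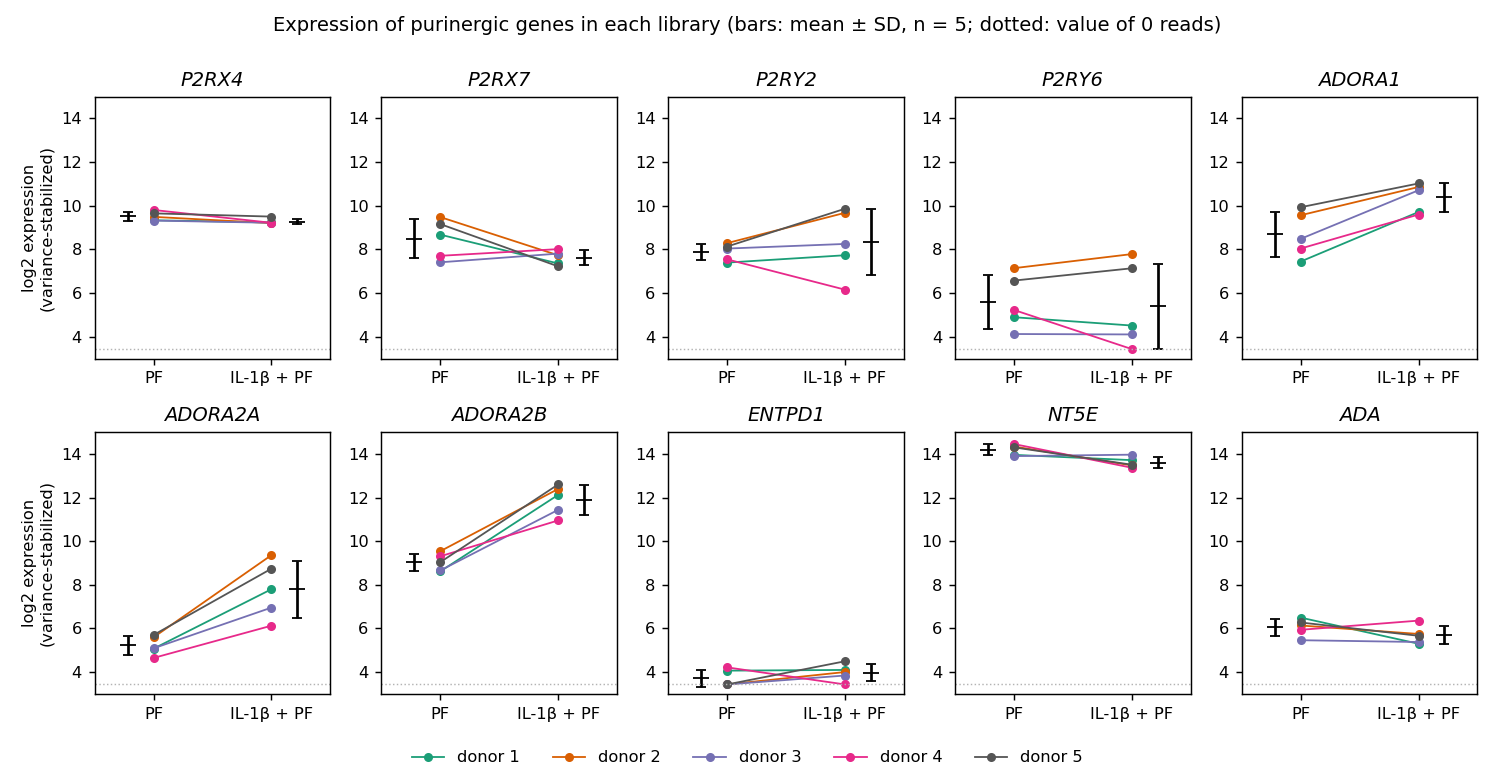
Log2 expression (variance-stabilized, vertical axis) of the 10 purinergic genes in each library, the inhibitor group (PF) on the left and the IL-1β group (IL-1β + PF) on the right of each panel. Lines join the 2 libraries of a donor, black bars are the mean ± SD (n = 5) and the dotted line is the value of 0 reads; ADORA1, ADORA2A and ADORA2B were higher in 5 of 5 donors.

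ADORA2B, a receptor of low affinity for adenosine that raises cyclic AMP, had the largest log2 fold change of the 10 genes on the deposited scale. In the inhibitor group its log2 expression in donors 1 to 5 was 8.62, 9.54, 8.66, 9.31 and 9.04. In the IL-1β group it was 12.12, 12.39, 11.44, 10.95 and 12.60. Every library with IL-1β stood above every library without it, and the difference between the means was larger than the SD of either group. The means were 9.03 ± 0.40 (SD, n = 5) and 11.90 ± 0.69 (SD, n = 5). The log2 fold change was 2.87 (standard error 0.31, 95% confidence interval 2.19 to 3.55, adjusted p = 0.000319 from limma). On the scale of back-transformed normalized counts with a pseudocount of 1, this was a 7.56-fold increase (95% confidence interval 4.69 to 12.2). The gene rested on 291 to 562 estimated reads per library in the inhibitor group and on 1378 to 5293 in the IL-1β group. Donor 4, with 1.64, had the smallest rise, and donor 5, with 3.56, the largest.

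ADORA2A, the receptor of higher affinity that also raises cyclic AMP, was near the bottom of the scale without IL-1β. Its log2 expression in donors 1 to 5 was 5.07, 5.59, 5.09, 4.65 and 5.70 in the inhibitor group, on 7 to 31 estimated reads per library. In the IL-1β group it was 7.80, 9.36, 6.95, 6.13 and 8.74, on 35 to 561 estimated reads. The groups did not overlap, but the libraries with IL-1β were spread widely, with donor 4 lowest and donor 2 highest. The means were 5.22 ± 0.43 (SD, n = 5) and 7.80 ± 1.31 (SD, n = 5). The log2 fold change was 2.57 (standard error 0.54, 95% confidence interval 1.39 to 3.76, adjusted p = 0.00938 from limma). On back-transformed normalized counts with a pseudocount of 1, where low values are less compressed, this was a 10.2-fold increase (95% confidence interval 3.73 to 27.7). Without both libraries of donor 1 and with no donor term, the adjusted p was 0.0566 (limma) with a log2 fold change of 2.54. The call was lost in that fit and kept in the other 14 of the 15 fits lacking 1 library or 1 donor. With the donor as a block the adjusted p was 0.00205 (limma). ADORA2A was counted in 5 of 5 fits, chosen after the data were seen, that left out a donor and kept the block.

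ADORA1, which lowers cyclic AMP, already differed between donors without IL-1β. Its log2 expression in donors 1 to 5 was 7.44, 9.56, 8.48, 8.04 and 9.93 in the inhibitor group and 9.71, 10.86, 10.71, 9.60 and 11.02 in the IL-1β group. The groups overlapped, because donor 5 without IL-1β stood above donors 1 and 4 with it. Within donors the direction was the same in 5 of 5, with differences of 1.09 to 2.27. The means were 8.69 ± 1.04 (SD, n = 5) and 10.38 ± 0.67 (SD, n = 5). The log2 fold change was 1.69 (standard error 0.48, 95% confidence interval 0.64 to 2.73, adjusted p = 0.0350 from limma), or 3.37-fold on normalized counts (95% confidence interval 1.58 to 7.18). Reads numbered 135 to 910 and 530 to 1761 per library. When the donor was not in the fit, this call was close to the threshold and could be lost by leaving out 1 library. It was lost in 10 of the 15 fits lacking 1 library or 1 donor. Over the 15, the log2 fold change ranged from 1.38 to 2.00 and the adjusted p from limma from 0.0191 to 0.103. The call was lost without the library of donor 1, 3 or 4 in the inhibitor group, without that of donor 2, 3 or 5 in the IL-1β group, and without both libraries of donor 1, 2, 3 or 4. With the donor as a block the standard error was 0.19 and the adjusted p 0.00136 (limma), and ADORA1 was counted in 5 of 5 fits that left out a donor and kept the block.

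**Figure D2:**
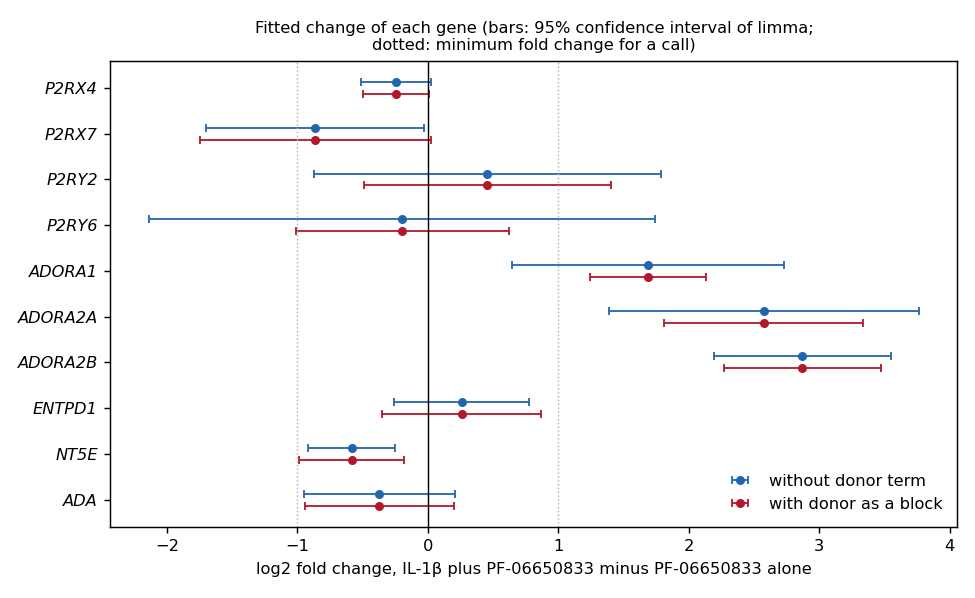
Fitted log2 fold change of each purinergic gene (horizontal axis, IL-1β group minus inhibitor group) from limma without a donor term (blue) and with the donor as a block (red). Bars are 95% confidence intervals; the interval of ADORA1 narrows from 0.64 to 2.73 without the donor term to 1.24 to 2.13 with it, and dotted lines mark the minimum fold change.

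Whether adenosine receptor genes responded unequally was asked with the log2 difference between 2 genes in the same library. This difference carries the ratio of the genes' lengths, so its level is not a comparison of expression between them, and only its change between the groups was tested. There were 6 such pairs among the 10 genes, tested with exact two-sided permutation tests of 5 against 5 libraries (smallest possible p = 0.00794) and Benjamini-Hochberg adjustment. These tests did not pair the libraries by donor. The difference ADORA2B minus ADORA1 went from 0.34 ± 0.90 (SD, n = 5) to 1.52 ± 0.60 (SD, n = 5), larger with IL-1β in 5 of 5 donors (exact permutation p = 0.0476, adjusted p = 0.143). This pair did not pass the adjustment. The difference ADORA2A minus ADORA2B went from -3.81 ± 0.52 (SD, n = 5) to -4.10 ± 0.69 (SD, n = 5), an amount smaller than the spread between libraries (exact permutation p = 0.452, adjusted p = 0.543). Which of these 2 receptors had the larger fitted response depended on the scale, as the change in this difference was -0.29 on the deposited values and 0.43 on normalized counts with a pseudocount of 1.

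Of the enzymes, NT5E was measured on 11593 to 20563 estimated reads per library in the inhibitor group and on 7417 to 13816 in the IL-1β group. Its log2 expression in donors 1 to 5 was 13.95, 14.34, 13.90, 14.45 and 14.30 without IL-1β and 13.71, 13.47, 13.96, 13.37 and 13.50 with it. It was lower in 4 of 5 donors, and in donor 3 the 2 libraries were within 0.07 of each other. The means were 14.19 ± 0.25 (SD, n = 5) and 13.60 ± 0.24 (SD, n = 5). The log2 fold change was -0.58 (standard error 0.15, 95% confidence interval -0.92 to -0.25, adjusted p = 0.0241 from limma), which is 33.3% lower on normalized counts (95% confidence interval 16.1% to 47.0%). NT5E was thus below the adjusted p of 0.05 without reaching the minimum fold change. Its adjusted p from limma ranged from 0.00770 to 0.131 over the 15 fits lacking 1 library or 1 donor.

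ENTPD1, which acts upstream of NT5E, was close to undetected. It had 0 reads in 3 of 5 libraries in the inhibitor group and in 1 of 5 in the IL-1β group, and never exceeded 5 estimated reads. A difference was not detectable at this depth (log2 fold change 0.26, 95% confidence interval -0.26 to 0.78, adjusted p = 0.516 from limma). ADA, which removes adenosine, had 17 to 62 estimated reads per library. Its log2 expression in donors 1 to 5 was 6.50, 6.13, 5.46, 5.94 and 6.27 without IL-1β and 5.30, 5.75, 5.38, 6.36 and 5.66 with it. The groups overlapped, with a log2 fold change of -0.37 (95% confidence interval -0.95 to 0.21, adjusted p = 0.387 from limma), and donor 4 went the opposite way to the other 4. The difference NT5E minus ENTPD1 was smaller with IL-1β in 5 of 5 donors, with a mean change of -0.84 (exact permutation p = 0.0238, adjusted p = 0.143), and it rests on the few reads of ENTPD1. The difference ADA minus NT5E moved by 0.21 (exact permutation p = 0.548, adjusted p = 0.548).

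Of the ATP-gated channels, P2RX4 varied little and P2RX7 varied much. The 2 genes are direct neighbours in the RefSeq annotation of the horse assembly TB-T2T, which is not the assembly used for quantification. P2RX4, a channel of high ATP affinity, was at 9.33, 9.49, 9.32, 9.81 and 9.65 in donors 1 to 5 without IL-1β and at 9.24, 9.20, 9.22, 9.22 and 9.50 with it. It was lower in 5 of 5 donors (differences of -0.59 to -0.10), and the groups overlapped (log2 fold change -0.24, standard error 0.12, 95% confidence interval -0.51 to 0.02, adjusted p = 0.210 from limma). It rested on 404 to 803 estimated reads per library.

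P2RX7, which opens only at high ATP concentrations and is known for activating the inflammasome, was at 8.68, 9.48, 7.41, 7.71 and 9.16 in donors 1 to 5 in the inhibitor group. In the IL-1β group it was at 7.35, 7.73, 7.81, 8.01 and 7.22. The donors did not move together. Donors 1, 2 and 5, which were highest without IL-1β, were lower with it (differences of -1.32, -1.75 and -1.94), while donors 3 and 4 were higher by 0.40 and 0.31. The SD was 0.90 without IL-1β and 0.33 with it, and the groups overlapped. Its log2 fold change was -0.86 (standard error 0.38, 95% confidence interval -1.70 to -0.03, adjusted p = 0.156 from limma). Without donor 3 in the inhibitor group it was -1.13 with an adjusted p of 0.0486 (limma), which would be counted as changed. P2RX7 was among the genes the study named after comparisons that used some of these libraries, so its direction here is not independent evidence. The difference P2RX7 minus P2RX4 changed by -0.62 (exact permutation p = 0.198, adjusted p = 0.397).

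The P2Y receptor genes P2RY2 and P2RY6 are also direct neighbours in that annotation. P2RY2, which responds to ATP and UTP, was at 7.40, 8.29, 8.04, 7.54 and 8.13 in donors 1 to 5 without IL-1β and at 7.73, 9.68, 8.25, 6.15 and 9.86 with it. Its libraries lay close together without IL-1β (SD 0.39) and far apart with it (SD 1.52). Donors 2 and 5 were higher by 1.39 and 1.73, donor 4 was lower (-1.39), and donors 1 and 3 were higher by 0.34 and 0.21. The log2 fold change of 0.46 had a 95% confidence interval of -0.87 to 1.78 (adjusted p = 0.675 from limma). It was 0.07 without the IL-1β group library of donor 5 and 1.00 without that of donor 4, and was not counted as changed in either fit.

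P2RY6, a receptor for UDP, separated the donors more than the groups. It was at 4.89, 7.14, 4.12, 5.23 and 6.57 in donors 1 to 5 without IL-1β and at 4.51, 7.78, 4.10, 3.43 and 7.13 with it. Donors 2 and 5 were the highest in both groups, and donor 4 with IL-1β was at the value of 0 reads. Reads numbered 2 to 90 and 0 to 176 per library. Its log2 fold change was -0.20 (95% confidence interval -2.14 to 1.74, adjusted p = 0.912 from limma), and its sign changed in some of the fits lacking 1 library or 1 donor. The difference P2RY2 minus P2RY6 was larger with IL-1β in 5 of 5 donors, by 0.65 on average (exact permutation p = 0.310, adjusted p = 0.464).

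**Figure D3:**
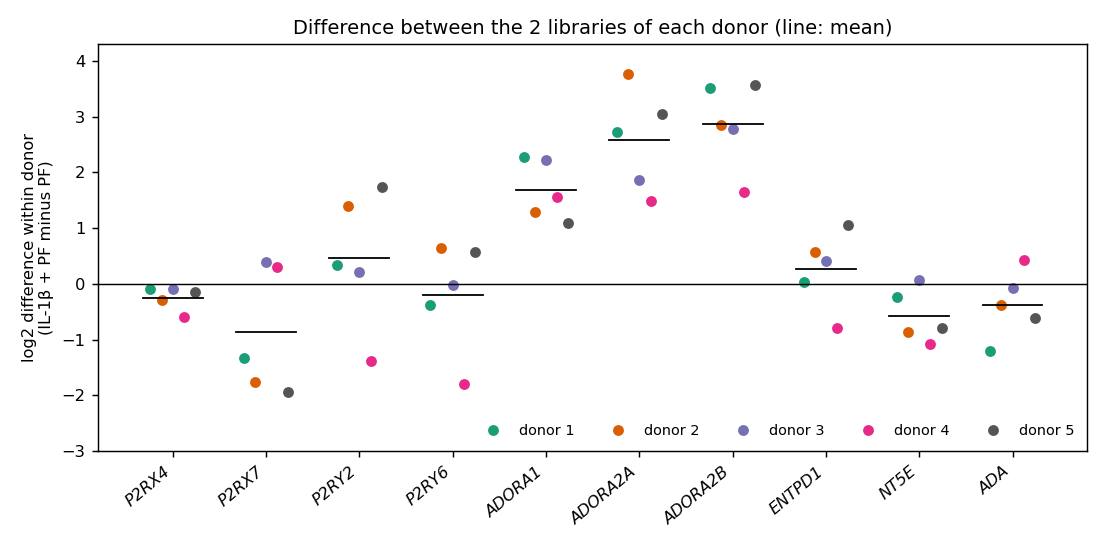
Log2 difference between the 2 libraries of each donor (vertical axis, IL-1β group minus inhibitor group) for each purinergic gene, with 1 coloured point per donor and a line at the mean. The 3 adenosine receptor genes lie above 0 in all 5 donors, and P2RX4 lies below 0 in all 5. P2RX7, P2RY2, P2RY6, ENTPD1, NT5E and ADA have donors on both sides of 0, with single differences from -1.94 to 1.73.

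The order of the donors recurred between genes. Donors 2 and 5 were the highest pair in both groups for 4 of the 10 genes, P2RY2, P2RY6, ADORA1 and ADORA2A. Donor 4 had the smallest rise of ADORA2A and of ADORA2B, the most negative difference of P2RY2 and of P2RY6 and the lowest NT5E with IL-1β, and was the donor in which ADA was higher with IL-1β. These orders are descriptions of 5 donors and carry no test. The genes whose values followed each changed receptor most closely over the 10 libraries, after the group means were subtracted, were NCAM1 (Pearson r = 0.99), SPNS2 (0.95) and PEAR1 (0.95) for ADORA1. For ADORA2A they were ZNF514 (-0.98), C26H21orf2 (-0.97) and TRIM6 (0.97), and for ADORA2B MARCH3 (0.98), RFX3 (-0.98) and MGAT4B (0.98). These are the most extreme of all genes with a symbol, and the libraries share donors, so the values are descriptive.

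The other genes of purine signalling were taken from 8 lists, of which 80 of 90 listed symbols were found in the table and 65 could be tested. Of these 65, 11 were changed, 8 higher and 3 lower, beside 6.68% of all tested genes. The lists too were chosen with earlier results of these data known. Their median log2 fold change was 0.15. With the donor as a block 15 were changed, 12 higher and 3 lower, beside 8.26% of all tested genes in that fit (721 higher and 765 lower).

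Among the other nucleotide receptors, all of the P2X and P2Y families, 0 of 6 tested genes were changed by limma (0 had an unadjusted p below 0.05). The count was also 0 with the donor as a block. P2RY14, a receptor for UDP-glucose, had the smallest adjusted p, with a log2 fold change of -0.47 (adjusted p = 0.183 from limma). Of the 10 found in the table, 4 had reads in too few libraries to be tested. The remaining adenosine receptor gene, ADORA3, was not found in the table under that symbol and was not analysed here.

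Among 14 tested enzymes that break down nucleotides, 1 rose and 1 fell (limma; 7 had an unadjusted p below 0.05). Without the minimum fold change 4 were below the adjusted p, 2 higher and 2 lower. The added ones, named after their values were seen, were ENTPD6 (log2 fold change -0.92, adjusted p = 0.0365 from limma) and ENTPD7 (0.54, adjusted p = 0.0267 from limma). ENPP1, which cleaves ATP to AMP and pyrophosphate and so feeds NT5E by another route than ENTPD1, fell (log2 means of 12.13 ± 0.40 and 9.57 ± 0.96, SD, n = 5 each), with a log2 fold change of -2.56 (adjusted p = 0.00212 from limma), and it was lower in each of the 5 donors. NT5C2, a cytosolic nucleotidase, rose by 1.01 (adjusted p = 0.00339 from limma), just past the fold change required. ALPL, a phosphatase that also hydrolyses extracellular nucleotides, was named after its values were seen. It was higher in 5 of 5 donors, with a log2 fold change of 2.86, an adjusted p of 0.0573 without and of 0.000864 with the donor as a block (limma), on 697 to 6544 estimated reads per library without IL-1β and 1867 to 96124 with it, and the groups overlapped.

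Among 6 tested genes of purine clearance and salvage, 0 were changed by limma (3 had an unadjusted p below 0.05), and 0 with the donor as a block. ADK, the kinase that returns adenosine to AMP inside the cell, had the smallest adjusted p, with groups that did not overlap and a log2 fold change of -0.77 (adjusted p = 0.00681 from limma), below the minimum fold change. The alternative adenosine deaminase gene ADA2 and DPP4, whose product binds ADA at the cell surface, were at the value of 0 reads in all 10 libraries and were named after their values were seen.

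Of the 5 tested nucleoside transporters, 1 rose and 1 fell. SLC29A1, an equilibrative transporter that carries adenosine across the plasma membrane, had a mean of 12.47 ± 0.45 (SD, n = 5) without IL-1β and of 10.78 ± 0.54 (SD, n = 5) with it. It was lower in 5 of 5 donors, by differences of -2.84 to -0.46, the groups did not overlap, and the log2 fold change was -1.69 (standard error 0.27, adjusted p = 0.00245 from limma). SLC29A4, a relative that carries monoamines and, in acid conditions, adenosine, rose by 2.84 (standard error 0.38, adjusted p = 0.000893 from limma), from 18 to 56 estimated reads per library to 148 to 750.

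Of 7 tested genes for ATP release, PANX2 rose by 1.47 (adjusted p = 0.0259 from limma), on 6 to 39 estimated reads per library without IL-1β, and CALHM2 fell (log2 fold change -1.09, adjusted p = 0.00453 from limma). LRRC8A, named after its values were seen, was higher in 5 of 5 donors but under the minimum fold change (log2 fold change 0.52, adjusted p = 0.0276 from limma). GJA1, which encodes a gap junction protein and was named after its values were seen, had a log2 fold change of -0.83 (adjusted p = 0.195 from limma) and did not pass. Of 15 tested genes that couple the receptors to calcium and cyclic AMP, PLCB1, a phospholipase that acts downstream of several P2Y receptors, rose by 1.80 (adjusted p = 0.00542 from limma), and the other 14 did not pass (6 of the 15 had an unadjusted p below 0.05). Of these 14, 4 had an adjusted p below 0.05 (limma) under the minimum fold change, all lower in 5 of 5 donors and named after their values were seen. GNAQ, a G protein subunit that activates phospholipase C, had a log2 fold change of -0.86 (adjusted p = 0.00714), the adenylyl cyclase genes ADCY3 and ADCY9 of -0.76 (0.0157) and -0.56 (0.0227), and the phospholipase gene PLCB3 of -0.43 (0.0238).

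Of 8 genes that respond to cyclic AMP or degrade it, 3 rose and 0 fell (limma; 5 had an unadjusted p below 0.05). PDE4D and PDE4B, which degrade cyclic AMP, rose by 1.80 (adjusted p = 0.00147 from limma) and 1.62 (adjusted p = 0.0263), and the nuclear receptor gene NR4A3 by 1.30 (adjusted p = 0.0395). Each was higher in 5 of 5 donors. With the donor as a block 4 rose, the added one being NR4A2, named after its values were seen (log2 fold change 1.60, adjusted p = 0.105 without and 0.0324 with the block, limma). CREM, also a known target of cyclic AMP and named after its values were seen, had a log2 fold change of 0.19 (adjusted p = 0.468 from limma). Many of these genes also respond to other signals, so the list does not measure cyclic AMP.

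Of 4 tested inflammasome genes and cytokines that P2RX7 is known to act on, 1 rose without and 3 with the donor as a block, and 0 fell in either fit (limma). IL1B had 0 reads in 4 of 5 libraries without IL-1β and 1 estimated read in the other, and 11 to 85 with it (adjusted p = 0.000652 from limma). IL1B passed the filter on low values only through its reads in the IL-1β group, so its being counted as changed is not independent of that filter. Its fitted log2 fold change of 2.59 depends on where the scale places 0 reads. NLRP3 and IL18, named after their values were seen, had log2 fold changes of 2.40 and 1.34 with adjusted p-values of 0.0568 and 0.0702 without the block and of 0.00753 and 0.0104 with it (limma).

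**Figure D4:**
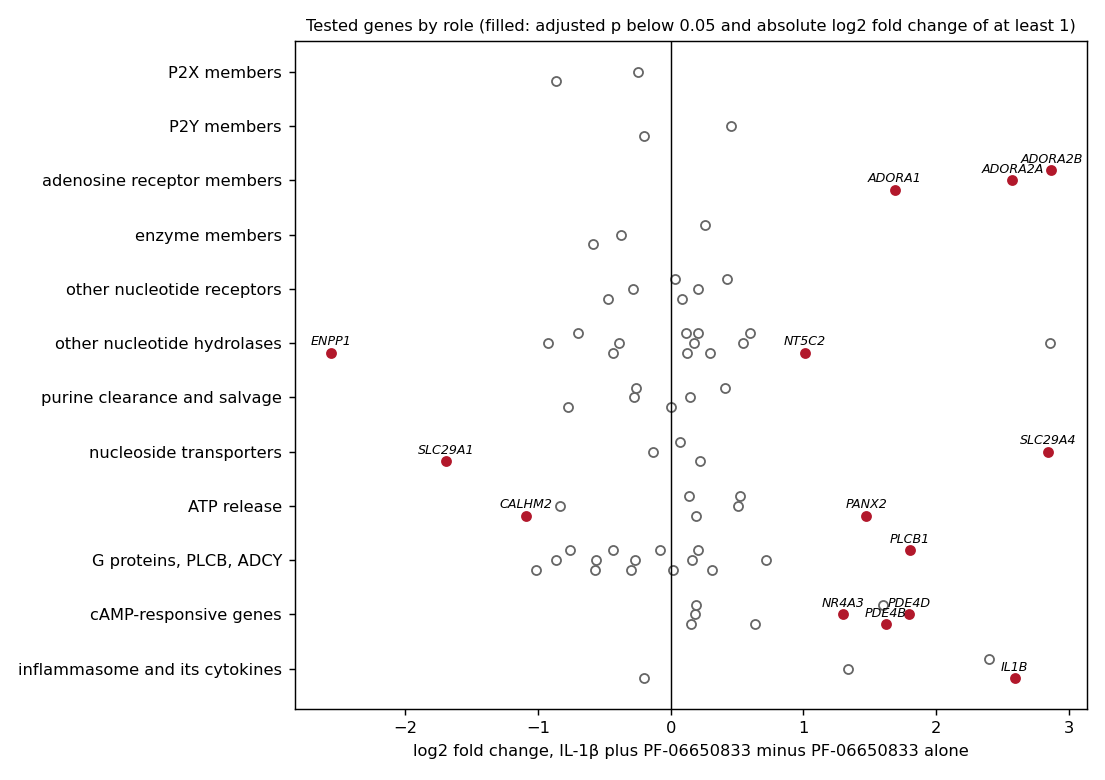
Log2 fold change (horizontal axis, IL-1β group minus inhibitor group) of all tested genes of purine signalling, in rows by role, with filled points for genes counted as changed. The adenosine receptor row holds 3 filled points between 1.69 and 2.87, while ENPP1 and SLC29A1 lie at -2.56 and -1.69.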

How the data were processed

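RNA from 10 libraries of equine tenocytes was analysed. According to the labels and the study's methods, the authors assigned reads to EquCab3.0 transcripts with Salmon (version 1.8, with GC-bias correction), summed them to genes with tximport, and used DESeq2 (version 1.36). The deposited values are on a log2 scale, already normalized between libraries by the authors. The transformation is not given in the sources used here and was recognised as variance stabilization from the lowest value of 3.433, shared by all libraries. Normalized counts were recovered by inverting it, and reads per library from the spacing of low values, of which 64.7% to 82.9% lay within 0.15 of a whole read, so reads are approximate and intervals on them were not computed.

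The 17992 of 29196 genes that exceeded this lowest value in 5 or more of the 10 libraries entered a limma fit (version 3.58.1, under R version 4.3.3), in which the prior variance followed mean expression, and p-values were adjusted over all of them by the Benjamini-Hochberg method. The main design had no donor term, as the study names none. The labels tie libraries to donors, and the deviations from the group means correlated within donors (across genes, 0.367 to 0.506 over 5 pairs). Over 20 pairs of different donors these correlations were -0.266 to 0.0869. Their mean of -0.107 is largely set by subtracting the group means and is no separate contrast. A second fit therefore had the donor, given by the replicate number, as a block. Changed genes had an adjusted p below 0.05 and differed by 1 or more on the log2 scale. The fit was also run on simulated counts of independent libraries without a donor effect, with large changes placed in well-read genes only. That run does not show how the fit performs with paired donors, few reads or small changes.

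The 10 genes and the lists were chosen with earlier results of these data known. The named genes are the 10 members, up to 3 changed genes of each list by adjusted p (or the one with the smallest), the 3 genes most like each changed member, and genes described as named later. Alternatives were other thresholds, filters, scales and variance models, the block, and fits lacking 1 library or 1 donor. No sequences or positions were used here, and the RefSeq table of another assembly served for names and gene order only.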

Additional observations from a re-analysis of the deposited data

Results flagged for a closer look

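Among the 20 groups of 5 libraries that the 10 genes give, 1 held a library far from the other 4, where chance gives about 1 in 20. In the IL-1β group, P2RX4 of donor 5 was at 9.50, against 9.20 to 9.24 in the other 4 donors, with 603 estimated reads against 404 to 501.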

How the results depend on the processing

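Over 27 alternatives each, the direction of 9 of the 10 genes was kept, and that of P2RY6, which was never counted, was not. Some alternatives leave the log2 fold change unaltered and so could not change a direction. They are the other thresholds, the block in all 10 libraries, the wider gene filter and other settings of the prior variance. The call of ADORA2B was kept in all 27. The donor block changed no call among the 10 genes. Without a minimum fold change NT5E (-0.58) was counted, also when the replicate block was added (-0.58), which brings the genes counted as lower to 1. At an adjusted p below 0.01 ADORA1 (1.69) was not counted, and with array weights P2RX7 (-1.10) was, so 1 gene was lower. When 1 library or 1 donor was left out, log2 fold changes ranged from -1.18 to -0.59 for P2RX7, from 1.38 to 2.00 for ADORA1 and from 2.18 to 2.99 for ADORA2A. Of the genes not counted, P2RY2 ranged from 0.07 to 1.00, P2RY6 from -0.79 to 0.29, ENTPD1 from 0.06 to 0.52 and ADA from -0.57 to -0.16. In these fits 1 to 3 of the 10 genes were counted, 1 to 3 higher and 0 to 1 lower, the lowest without donor 1, and the 1 lower gene was P2RX7 without the inhibitor group library of donor 3. The fits that kept the block and left out a donor were chosen after the data were seen, and 3 genes were counted in each.

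Over all genes, 1202 were changed (560 higher, 642 lower), 2782 without a minimum fold change (1362 higher, 1420 lower), 3996 (1969 higher, 2027 lower) when the replicate block was added to that, and 719 at an adjusted p threshold of 0.01. Leaving out a library or donor gave 762 to 1422 (356 to 647 higher, 389 to 775 lower). With the block kept and a donor left out, 1177 to 1677 were changed, 589 to 777 higher and 588 to 942 lower, these being ranges over the 5 fits. With the replicate block, 2 nucleotide hydrolases rose in place of 1, 4 cyclic AMP genes in place of 3, and 3 inflammasome genes in place of 1. None of the 6 pairs passed the adjustment on any scale, and with the replicate block a sign-flip test of 5 donors cannot give a p below 0.0625. ADORA2B minus ADORA1, NT5E minus ENTPD1 and P2RY2 minus P2RY6 each had that smallest p (sign-flip test, adjusted p = 0.125). With 5 donors the sign-flip test cannot reach a p below 0.05 for any pair, so it does not decide whether the genes responded unequally. The cause of these changes was not tested. Depth limits ENTPD1, P2RY6, ADA and ADORA2A most. ENTPD1 and ADA had few reads in both groups, P2RY6 had few in some libraries of both, and ADORA2A had few without IL-1β.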
